A study of Mus musculus with 44 samples.

Results

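The comparison concerns the mRNA of 2 neighbouring cell populations of the early mouse skeletal lineage, pBCSP (pre bone, cartilage and stromal progenitor) and BCSP (bone, cartilage and stromal progenitor). Both were sorted at postnatal day 3 from dissociated limb metaphyses with their growth plates, after removal of marrow and periosteum, of C57Bl6 mice that the labels give as wild type (WT). Where it introduces the knockout, the study calls Mettl3 fl/fl control mice WT, and it does not say whether these animals were such mice. By its methods, either sex was taken. The comparison comprises 4 of the 44 libraries of the series, namely 2 input libraries of pBCSP and 2 of BCSP, where input is the RNA sequenced without m6A enrichment. For context, the same 2 populations were read in 4 input libraries labelled Mettl3KO, in which Col2a1-Cre deletes Mettl3 in cells that express this cartilage collagen, and in the 12 input libraries of the other 6 WT populations. Each cell suspension was first cleared of CD45+, Ter119+ and Tie2+ cells and kept for AlphaV+ (CD51) cells. Among Thy1-6C3- cells, BCSP is CD105+, whereas pBCSP is CD105-CD200-. Eng, which encodes CD105, and Cd200 were therefore part of the gates, and their difference is no finding. The samples are bulk RNA, in which more cells of a type and more RNA per cell cannot be told apart.

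In the growth plate, chondrocytes divide in columns, then enlarge (hypertrophy), secrete collagen X and calcify their matrix before bone replaces them. Indian hedgehog from cells about to enlarge and parathyroid hormone-related protein from cells near the joint form a feedback loop that sets the pace of this sequence. Osteoblasts and osteocytes use many of the same mineral-binding proteins, whereas cells at the joint surface secrete lubricin, and the perichondrium around the cartilage is rich in fibroblast and tendon matrix.

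The 4 libraries held between 30946739 and 32518936 counts. Levels are given as CPM, the usual depth-scaled counts, with TMM factors over all 22 input libraries, and changes as log2 fold change of BCSP minus pBCSP with its standard error (SE). Across genes, which are not independent replicates, log2 CPM correlated at 0.950 between the pBCSP replicates and at 0.925 between the BCSP replicates, against 0.912 to 0.934 between libraries of different populations. The study describes its replicates as biologically independent, whereas the labels do not say which animals or pools they came from. With 2 replicates a population, p-values set a difference against the spread between these samples, and the estimate of that spread also borrows from other genes. In both populations replicate 1 carried Xist and replicate 2 carried Y-linked transcripts. Xist was at 112 CPM in pBCSP replicate 1 and 258 CPM in BCSP replicate 1, against 5.42 and 10.8 CPM in the replicates numbered 2, and Ddx3y was at 0.58 and 2.25 CPM against 180 and 121 CPM. The libraries thus differed by sex chromosome transcripts within each population and not between the populations.

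The gates were visible in the mRNA. Eng was 32.5 and 63.7 CPM in the pBCSP libraries and 111 and 141 CPM in the BCSP libraries. Cd200 was 25.8 and 21.0 CPM in pBCSP and 261 and 157 CPM in BCSP, although CD200 was no criterion for BCSP. Thy1 was at most 0.122 CPM in all 4 libraries. Enpep (6C3) was between 2.12 and 5.36 CPM, against 41.0 to 55.3 CPM in the WT 6C3 and HEC libraries sorted as 6C3+. Ptprc (CD45) had no count in the 4 libraries, and Tek (Tie2) was at most 0.981 CPM. Itgav, the AlphaV chain of the gate, was 29.8 and 34.9 CPM in pBCSP and 66.2 and 45.7 CPM in BCSP (log2 fold change 0.80, SE 0.26, adjusted p = 0.318).

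BCSP carried more mRNA of genes for cartilage enlargement and mineralization, and pBCSP more mRNA of Egfl6, Cilp and Thbs4, which encode secreted matrix proteins. Of 16345 genes tested with edgeR's quasi-likelihood test, 12 rose in BCSP and 3 rose in pBCSP at an adjusted p under 0.05, which is 0.0734% and 0.0184% of the genes. By the rule of the study, a log2 fold change beyond 0.5 at an unadjusted p under 0.05, 985 genes (6.03%) were higher in BCSP and 1012 (6.19%) were higher in pBCSP. Scaled by library size alone, these counts were 760 and 1297. The 2 libraries of one population lay above both of the other in 3609 genes (22.1%) for BCSP and in 3908 (23.9%) for pBCSP, so non-overlap by itself was common. The 12 genes higher in BCSP were Alpl, Ibsp, Col10a1, Pth1r, Cd200, Ihh, R3hdml, Dmp1, Smim5, Omd, F13a1 and Cbln2, and the 3 higher in pBCSP were Egfl6, Cilp and Thbs4. When all 16 WT input libraries shared the estimate of spread, 124 of 20060 genes (0.618%) were higher in BCSP and 212 (1.06%) in pBCSP, and all 15 genes stayed called.

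**Figure D1:**
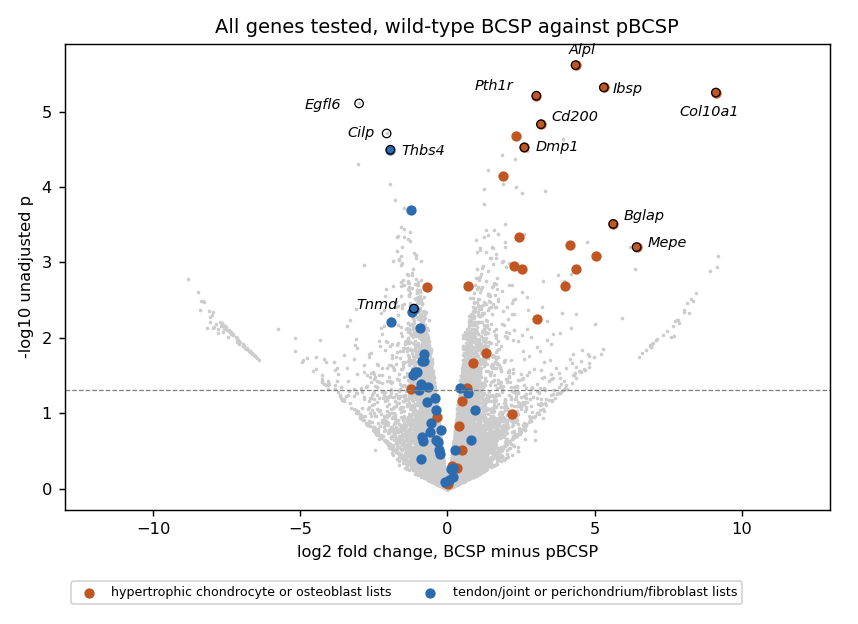
Each point is 1 of the 16345 genes tested, with the log2 fold change (BCSP minus pBCSP) on the x axis and -log10 of the unadjusted p on the y axis, and the dashed line marks the unadjusted threshold of the study. Orange points are members of the hypertrophic chondrocyte and osteoblast lists, and blue points are members of the tendon, ligament and joint and of the perichondrium lists. Genes on lists of both colours, such as Postn, are left grey, and black rings mark the genes with a label. Alpl, Ibsp, Col10a1 and Pth1r lie at the upper right and Egfl6 and Cilp at the upper left.

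Collagen X, a network-forming collagen of hypertrophic cartilage, showed the largest of the 15 called differences. Col10a1 (chr10:34389981-34397085 in GRCm38) was 2.67 and 0.49 CPM in pBCSP and 1015 and 722 CPM in BCSP, that is 83 and 16 counts against 32077 and 22460 counts. The log2 fold change was 9.12 (SE 0.76, adjusted p = 0.0251), or 8.32 between the replicates numbered 1 and 9.51 between those numbered 2. The transcript was close to absent from pBCSP and abundant in both BCSP libraries.

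The enzyme and the hormone receptor of mineralizing cartilage and bone followed. Alpl (chr4:137741733-137796384), the tissue-nonspecific alkaline phosphatase that removes an inhibitor of mineral growth, was 26.8 and 22.8 CPM in pBCSP and 635 and 370 CPM in BCSP (log2 fold change 4.35, SE 0.32, adjusted p = 0.0251, 20.5-fold). Pth1r (chr9:110722085-110747145), the receptor for parathyroid hormone and its related protein, was 24.6 and 21.8 CPM in pBCSP and 219 and 154 CPM in BCSP (3.02, SE 0.25, adjusted p = 0.0251). For both, the replicates of pBCSP were close together and the groups were far apart. Ihh (chr1:74945315-74951672), the hedgehog ligand of the growth plate, was 32.4 and 40.4 CPM in pBCSP and 158 and 203 CPM in BCSP, a 5-fold difference (2.32, SE 0.23, adjusted p = 0.0416). Ihh was thus read in both populations and Col10a1 almost only in BCSP.

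Among matrix proteins, Omd (osteomodulin, chr13:49582462-49592822, a small leucine-rich proteoglycan of mineralized tissue) was 268 and 346 CPM in pBCSP and 2510 and 1482 CPM in BCSP (log2 fold change 2.72, SE 0.30, adjusted p = 0.0425). F13a1, the catalytic chain of the cross-linking enzyme factor XIII, was 27.6 and 24.8 CPM in pBCSP and 92.3 and 97.8 CPM in BCSP (1.87, SE 0.21, adjusted p = 0.044). Cbln2, a secreted protein best known as an organizer of synapses, was 12.3 and 9.003 CPM in pBCSP and 49.9 and 52.8 CPM in BCSP (2.29, SE 0.26, adjusted p = 0.0468). These 3 transcripts did not overlap between the populations, which the rule for named genes requires. Of the remaining called genes, Smim5, a small membrane protein, rose from 9.79 and 10.2 CPM to 70.3 and 47.7 CPM and R3hdml from 1.48 and 1.19 CPM to 24.6 and 15.8 CPM. Chad (chondroadherin), Mef2c (a transcription factor of chondrocyte hypertrophy) and Frzb (a secreted Wnt antagonist) came next by p and missed the threshold, at log2 fold changes of 1.39, 1.91 and 1.89 and adjusted p of 0.0574, 0.0657 and 0.0753. With all 16 WT input libraries in the fit they passed, at adjusted p of 0.00557, 0.000212 and 0.00315. Chad was 4849 and 4547 CPM in pBCSP and 13277 and 11058 CPM in BCSP.

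**Figure D2:**
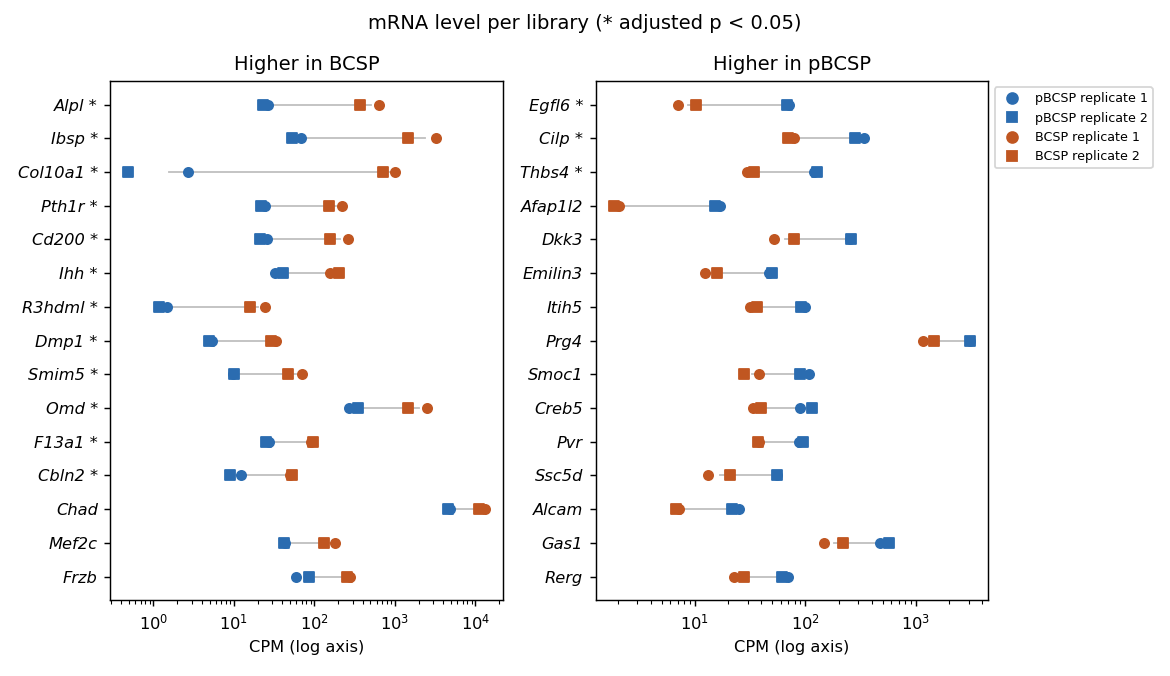
Levels in CPM on a log axis for the 15 genes of smallest p in each direction with at least 5 CPM in the higher population and no overlap, with circles for replicate 1, squares for replicate 2, blue for pBCSP and orange for BCSP, and grey lines between the means. An asterisk marks an adjusted p under 0.05; Col10a1 spans from 0.49 CPM to 1015 CPM, whereas Prg4 lies above 1000 CPM in all 4 libraries.

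Dmp1, Ibsp, Mepe and Spp1 are neighbours on chromosome 5 and belong, with Dspp, to the SIBLING family of secreted acidic phosphoproteins that bind mineral and integrins. From the start of Dspp to the end of Spp1 the family spans 270.3 kb of GRCm38, from position 104170712 to 104441050. These genes were singled out after their values were seen. Ibsp (bone sialoprotein, chr5:104299171-104311469) was 68.5 and 52.6 CPM in pBCSP and 3291 and 1477 CPM in BCSP (log2 fold change 5.32, SE 0.43, adjusted p = 0.0251, 39.8-fold). Dmp1 (dentin matrix protein, chr5:104202613-104214102) was 5.35 and 4.87 CPM in pBCSP and 33.1 and 29.0 CPM in BCSP (2.62, SE 0.28, adjusted p = 0.0425). Both passed the test, and for both the lower BCSP library lay several-fold above the higher pBCSP library. Spp1 (osteopontin, chr5:104435118-104441050) was 767 and 533 CPM in pBCSP and 4837 and 2110 CPM in BCSP (2.43, SE 0.40), with an adjusted p of 0.175. Mepe (chr5:104325329-104338611) was near 0 in pBCSP, with 4 counts in replicate 1 and none in replicate 2, and 3.89 and 7.59 CPM in BCSP (adjusted p = 0.187). With all 16 WT input libraries in the fit, Spp1 (adjusted p = 0.0247) and Mepe (adjusted p = 0.0247) passed as well. Dspp, the dentin gene at the head of the cluster, had no count in the 4 libraries. Of the flanking genes, Sparcl1 had a log2 fold change of 0.73 (adjusted p = 0.323) and Pkd2 of 0.43 (adjusted p = 0.484).

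Because these neighbours were higher together, their proximal promoters are shown, with that of the osteocalcin gene Bglap, whose promoter is a textbook target of the osteoblast factor RUNX2. The windows are the 250 bases before the transcript start in RefSeq (GRCm38.p6), 5′ to 3′ on the strand of the gene, and capitals mark TGTGGT or its reverse complement ACCACA, the core that RUNX proteins recognize, searched on both strands.
Dmp1, chr5:104202367-104202616, plus strand: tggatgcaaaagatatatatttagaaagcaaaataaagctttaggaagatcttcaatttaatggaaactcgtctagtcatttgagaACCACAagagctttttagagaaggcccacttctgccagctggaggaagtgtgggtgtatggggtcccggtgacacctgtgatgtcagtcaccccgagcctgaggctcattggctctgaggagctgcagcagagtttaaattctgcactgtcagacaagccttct
Ibsp, chr5:104299037-104299286, plus strand: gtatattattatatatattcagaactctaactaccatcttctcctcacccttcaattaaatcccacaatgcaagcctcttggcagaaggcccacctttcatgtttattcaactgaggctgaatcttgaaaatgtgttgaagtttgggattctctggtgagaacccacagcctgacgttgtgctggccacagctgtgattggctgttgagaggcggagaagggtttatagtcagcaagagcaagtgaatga
Mepe, chr5:104325079-104325328, plus strand: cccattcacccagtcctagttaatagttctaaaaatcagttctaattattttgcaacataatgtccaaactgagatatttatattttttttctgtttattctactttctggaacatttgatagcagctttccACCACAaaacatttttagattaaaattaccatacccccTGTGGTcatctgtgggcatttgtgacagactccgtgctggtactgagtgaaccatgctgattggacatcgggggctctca
Spp1, chr5:104434861-104435110, plus strand: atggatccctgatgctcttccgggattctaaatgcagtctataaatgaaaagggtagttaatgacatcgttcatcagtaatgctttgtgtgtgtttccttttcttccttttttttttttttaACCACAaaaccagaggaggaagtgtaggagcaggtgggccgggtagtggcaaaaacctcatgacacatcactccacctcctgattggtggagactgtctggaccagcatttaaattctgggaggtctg
Bglap, chr3:88384467-88384716, minus strand: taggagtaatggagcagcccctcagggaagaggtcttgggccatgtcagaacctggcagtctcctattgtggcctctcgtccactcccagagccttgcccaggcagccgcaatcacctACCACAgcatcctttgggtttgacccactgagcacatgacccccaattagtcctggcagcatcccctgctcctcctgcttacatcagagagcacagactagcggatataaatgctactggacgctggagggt

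The core began 164 bases before the start of Dmp1, 128 before that of Spp1 and 132 before that of Bglap. It occurred at 118 and 80 bases in Mepe, and it was not in the window of Ibsp, the member with the largest called difference. RefSeq gives Dmp1 and Spp1 another start each, and those windows held no match. Of all 32851 promoter windows of this length, 4614 (14%) held the core. Of the 15 called genes, 13 had a promoter in the table, and the core was in 2 of them, Dmp1 and Cilp, which differed in opposite directions. A match is a description of the sequence and shows no binding. Runx2 itself was 49.5 and 38.2 CPM in pBCSP and 64.6 and 49.8 CPM in BCSP (log2 fold change 0.40, SE 0.24, adjusted p = 0.545).

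All 15 genes of the hypertrophic chondrocyte list were tested, 14 had a positive log2 fold change and 6 rose in BCSP, namely Alpl, Ibsp, Col10a1, Pth1r, Cd200 and Ihh. Cd200 was part of the pBCSP gate, which leaves 5 whose difference the sort did not set directly. By the rule of the study 11 were higher in BCSP and none in pBCSP. The median of the list was 2.43, against 0.01 over all genes tested. Of the 24 osteoblast genes, 20 had a positive value, Alpl, Ibsp and Dmp1 rose, and 15 were higher in BCSP and 3 in pBCSP by the rule of the study, with a median of 2.24. Bglap was 1.74 and 0.796 CPM in pBCSP and 104 and 19.97 CPM in BCSP (log2 fold change 5.63, adjusted p = 0.17), and reads of its near-identical copies Bglap2 and Bglap3 may be shared among them. The 3 osteoblast genes on the pBCSP side were Col1a1, Postn and Tnc, which fibroblasts also express. Col1a1 was 10841 and 11029 CPM in pBCSP and 6311 and 7056 CPM in BCSP (-0.70, SE 0.15, adjusted p = 0.252). Both lists kept the direction of their medians with each library left out in turn and under each scaling.

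**Figure D3:**
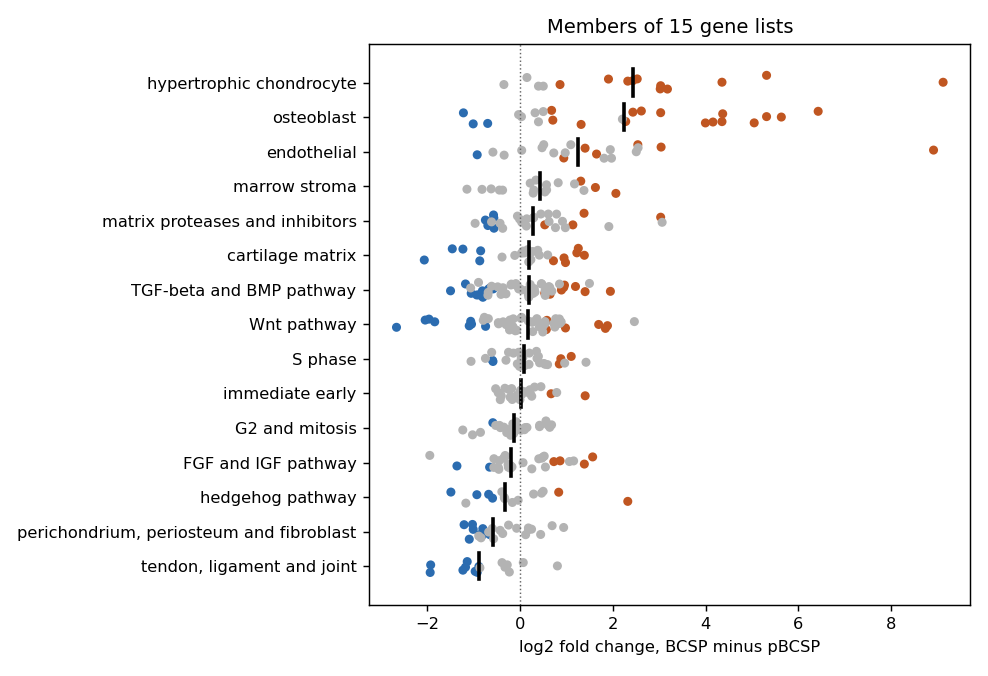
Log2 fold change (BCSP minus pBCSP, x axis) of the tested members of 15 gene lists, 1 point a gene, with black bars for the median of a list and a dotted line for the median of all genes. Orange and blue points passed the rule of the study on the BCSP or pBCSP side and grey points did not; the medians run from 2.43 in the hypertrophic chondrocyte list to -0.89 in the tendon, ligament and joint list.

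On the side of pBCSP, 3 genes passed the test. Egfl6 (chrX:166523007-166585720), a secreted protein with epidermal growth factor repeats, was 71.3 and 67.6 CPM in pBCSP and 7.09 and 10.1 CPM in BCSP (log2 fold change -2.999, SE 0.26, adjusted p = 0.0255, 8-fold). Cilp (chr9:65265180-65280605), the cartilage intermediate layer protein of articular cartilage, was 341 and 284 CPM in pBCSP and 79.1 and 68.9 CPM in BCSP (-2.06, SE 0.21, adjusted p = 0.0416). Thbs4 (chr13:92751590-92794818), a thrombospondin abundant in tendon, was 119 and 127 CPM in pBCSP and 29.3 and 34.4 CPM in BCSP (-1.94, SE 0.21, adjusted p = 0.0425). None of these transcripts was absent from BCSP. Their groups did not overlap, which the rule for named genes requires.

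The next 12 genes by p in this direction missed the threshold. With all 16 WT input libraries in the fit, 11 of them passed, from Dkk3 (adjusted p = 0.000187) to Smoc1 (adjusted p = 0.0329), and Prg4 did not (adjusted p = 0.0512), while DESeq2 called all 12. Prg4 (lubricin, the lubricant of the joint surface) was 3086 and 3111 CPM in pBCSP and 1168 and 1448 CPM in BCSP (log2 fold change -1.23, SE 0.18, adjusted p = 0.118). Gas1, a co-receptor for hedgehog ligands, was 471 and 565 CPM in pBCSP and 147 and 219 CPM in BCSP (-1.49, SE 0.24, adjusted p = 0.175). Both were abundant in both populations. The matrix genes Emilin3, Itih5 and Smoc1 had log2 fold changes of -1.77, -1.46 and -1.57, and Dkk3, a member of the Dickkopf family, had -1.96 (adjusted p = 0.0753). Afap1l2, an adaptor of Src signalling, was 16.9 and 15.3 CPM in pBCSP and 2.06 and 1.83 CPM in BCSP (-3.03, SE 0.35, adjusted p = 0.0509). The other named genes were the transcription factor Creb5, the adhesion molecules Pvr and Alcam, the scavenger receptor Ssc5d and the Ras-like Rerg, with log2 fold changes between -1.73 and -1.25.

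Of the 15 tendon, ligament and joint genes, 13 had a negative value, Thbs4 passed the test, and 8 were higher in pBCSP and none in BCSP by the rule of the study, with a median of -0.89. Of the 24 perichondrium, periosteum and fibroblast genes, 17 had a negative value and none passed the adjusted test, whereas 8 were higher in pBCSP by the rule of the study, among them Dpt (-1.21), Cd34 (-0.81), Postn (-1.01) and Ogn (-0.80), with a median of -0.58. The summed level of this list overlapped, with 9817 and 14493 CPM in pBCSP and 8369 and 10329 CPM in BCSP. Its genes differed between the pBCSP libraries, for example Postn with 242 CPM in replicate 1 and 432 CPM in replicate 2. Without pBCSP replicate 2, or without BCSP replicate 1, the count of fibroblast genes higher in pBCSP was 2 of 24, and that of tendon and joint genes was 5 of 15. The cartilage matrix list was split, with 6 of 23 genes higher in BCSP and 5 in pBCSP by the rule of the study and a median of 0.19. Its BCSP side held Chad, Ucma (0.98), Col27a1, Acan (0.95), Col11a1 and Mia, and its pBCSP side Cilp, Itih5, Prg4, Prelp and Matn4. Col2a1, the main cartilage collagen, was 70085 and 75242 CPM in pBCSP and 69947 and 83752 CPM in BCSP (0.09, SE 0.14), and Sox9, the transcription factor that drives it, was between 4564 and 6571 CPM in the 4 libraries. Both populations were therefore rich in cartilage transcripts, the groups overlapped for Col2a1, and for Sox9 the pBCSP libraries lay slightly above (-0.25, SE 0.17, adjusted p = 0.593).

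In the hedgehog pathway, Ihh rose in BCSP and none of the other 14 genes tested passed. The values of the others were chosen for display after they were seen. Ptch1, receptor and target of the pathway, was 34.6 and 36.8 CPM in pBCSP and 77.7 and 48.4 CPM in BCSP (0.83, SE 0.27, adjusted p = 0.323). The co-receptors Boc (-0.93, adjusted p = 0.294) and Cdon (-0.59, adjusted p = 0.341), like Gas1, and the decoy receptor Hhip (-0.68, adjusted p = 0.297) had higher values in pBCSP. Gli1, another target, was 23.6 and 27.8 CPM in pBCSP and 20.1 and 18.7 CPM in BCSP (-0.39, SE 0.25).

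The other signalling lists were divided. Of 59 TGF-beta and BMP genes, none passed the adjusted test, and 9 were higher in BCSP and 10 in pBCSP by the rule of the study. Chrdl1, an extracellular BMP antagonist, was 19.9 and 12.8 CPM in pBCSP and 72.1 and 52.7 CPM in BCSP (1.95, SE 0.30, adjusted p = 0.17), and Smad7, an intracellular inhibitor, had 0.91, whereas Tgfbi, a matrix protein induced by TGF-beta, had -1.05. Of 49 Wnt genes, 7 and 8 met the rule in the 2 directions. The secreted modulators went both ways, with Frzb at 60.2 and 87.0 CPM against 282 and 257 CPM, the Wnt enhancer Rspo3 at 1.84 on the log2 scale, and Dkk3 and the joint-line ligand Wnt9a at -1.96 and -1.84. Among 29 FGF and IGF genes, Fgf2 was 6.25 and 7.72 CPM in pBCSP and 21.0 and 19.97 CPM in BCSP (1.57, adjusted p = 0.215), and Igf1 was 50.8 and 79.7 CPM in pBCSP and 24.7 and 25.7 CPM in BCSP (-1.36, adjusted p = 0.239). In the Notch list Notch1 had -0.94, and Mfng and Notch3, at no more than 3.83 CPM, were on the BCSP side by the rule of the study.

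No gene of the S phase list or of the G2 and mitosis list passed the adjusted test. Of 30 S phase genes, 3 were higher in BCSP and 2 in pBCSP by the rule of the study (median 0.08). Of 30 G2 and mitosis genes, none was higher in BCSP and 1 was higher in pBCSP (median -0.13). Over all genes tested, 6.03% and 6.19% met that rule on the BCSP and pBCSP sides. The S phase genes that met it were Gins2 (0.85), Tyms (0.88) and Hells (1.10) against Cdt1 (-0.59) and Mcm7, and the mitotic gene was Cdc20 (-0.59). With 1 library left out, the S phase median ran from -0.04 to 0.42 and the G2 and mitosis median from -0.30 to 0.13. The transcription factor lists held Mef2c and the forkhead genes Foxa2 (6.25 and 6.89 CPM against 34.5 and 17.7 CPM) and Foxa3 (0.76) on the BCSP side. By the rule of the study, 2 of 35 glycolysis and hypoxia genes were higher in BCSP and 5 in pBCSP. None passed the adjusted test. The median of the list was 0.02, but 0.27 without pBCSP replicate 1 and -0.17 without pBCSP replicate 2. The enzymes Pfkp (-0.94), Hk1 (-0.66) and Car9 (-1.34) were among the genes on the pBCSP side. Of 20 m6A genes, none passed the adjusted test, and the median was -0.10. Rbm15b (1.01) met the rule of the study on the BCSP side and Ythdf2 (-0.53), Mettl16 (-0.62), Ythdf3 (-0.67) and Igf2bp2 on the pBCSP side. Of 15 genes tested on the list of Cullin-2 ligase and ubiquitin genes, none passed the adjusted test, and the median was -0.07. By the rule of the study, 1 was higher in BCSP, Rbx1 (0.51), and 1 in pBCSP, Vhl (-0.68), close to the shares over all genes given above. H19, an imprinted noncoding RNA that restrains growth, was 1060 and 1093 CPM in pBCSP and 2588 and 2453 CPM in BCSP (1.24, SE 0.16, adjusted p = 0.0789).

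The lists not yet described had medians between -0.08 and 0.44. They are marrow stroma, resting zone genes, matrix proteases, integrins and adhesion, immediate early genes, heat shock genes, cell cycle exit and imprinted genes. Mmp13, the collagenase of hypertrophic cartilage, was 18.4 and 5.94 CPM in pBCSP and 160 and 36.1 CPM in BCSP (3.03, SE 0.77, adjusted p = 0.284), a difference within which replicate 1 was the higher in each population. The adhesion genes Cdh11 (-1.53) and Itga5 (-0.87) were on the pBCSP side, and the heat shock genes Hspa1a (-1.04) and Hspa1b (-0.93), which share reads as near-identical copies, were as well.

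Markers of other cell types were examined beside these results. Of 21 endothelial markers, 12 were higher in both BCSP libraries than in both pBCSP libraries and 1, Erg, was lower. Over all genes tested, these shares were 22.1% and 23.9%. The summed level of the endothelial markers was 103 and 127 CPM in pBCSP and 238 and 214 CPM in BCSP, of which Eng made up the larger part of the difference. Eng, which encodes the CD105 of the gate, is among the 12. It also meets the rule of the study, which 6.03% of all genes tested met on the BCSP side. By the rule of the study 6 endothelial markers were higher in BCSP, and without BCSP replicate 1 this count was 2. Pecam1 was 4.90 and 0.551 CPM in pBCSP and 14.8 and 6.27 CPM in BCSP, and Cldn5 was 1.22 and 0.245 CPM against 9.21 and 2.77 CPM, while Cdh5 was at most 1.38 CPM. Sox18 had no count in pBCSP and was 2.22 and 1.58 CPM in BCSP. In the PCP libraries, by comparison, Pecam1 was 51.1 and 43.1 CPM. The part of endothelial cells in the differences above was not tested. Macrophage markers summed to 71.3 to 94.3 CPM, with C1qa, C1qb and Adgre1 at 0. Among osteoclast markers, whose sum of 445 to 672 CPM came mostly from Ctsk and Nfatc1 (also expressed in skeletal cells), Calcr and Atp6v0d2 had no count. Of 17 skeletal muscle markers 13 were under 1 CPM in all 4 libraries, and the sum was 40.9 and 31.8 CPM in pBCSP and 83.9 and 66.3 CPM in BCSP, from Tnnt3 and Tnni2. Neutrophil markers summed to 76.8 CPM in BCSP replicate 1 and to at most 9.44 CPM in the other 3 libraries, with Ly6g at 0. The Schwann cell sum was 108 and 101 CPM in pBCSP and 163 and 134 CPM in BCSP. Most of it came from S100b, at 92.2 and 81.0 CPM in pBCSP and 141 and 122 CPM in BCSP. The erythroid sum was 43.9 and 58.4 CPM in pBCSP and 28.2 and 39.7 CPM in BCSP. Most of that sum came from Tfrc, at 37.5 and 55.8 CPM against 25.9 and 33.0 CPM. The lymphoid, pericyte and adipocyte sums overlapped between the populations. The part of these cells in the differences was not tested either.

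Across the WT hierarchy, the genes of the comparison followed different patterns, given here as levels with no test. SSC (skeletal stem cell), the CD105-CD200+ neighbour of pBCSP, was closer to BCSP than to pBCSP in several of the genes high in BCSP. Omd was 3120.2 and 2339 CPM in SSC, Alpl 439 and 309 CPM, and Cd200, which the SSC gate requires, 290 and 146 CPM. Col10a1 was 142 and 169 CPM in SSC, between the other 2 populations, and at most 12.8 CPM in the other 5 populations. Ihh was 48.3 and 71.5 CPM in SSC and at most 2.76 CPM in those 5. Ibsp and Alpl, in contrast, were also high in PCP, with 2569 and 1264 CPM for Ibsp and 386 and 412 CPM for Alpl. In BLSP, Ibsp was 216 and 481 CPM and Alpl 249 and 258 CPM, also above pBCSP. Omd in PCP, at 343 and 286 CPM, was near its level in pBCSP. Egfl6 was 15.6 and 24.4 CPM in SSC and between 54.0 and 145 CPM in the PCP, THY, BLSP, 6C3 and HEC libraries. Cilp and Prg4 were highest in HEC, with 2183 and 2719.5 CPM and 7703 and 6147 CPM, and Thbs4 was highest in THY, with 1163 and 986 CPM. In PCP, THY and BLSP, Prg4 was at most 266 CPM, below pBCSP.

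**Figure D4:**
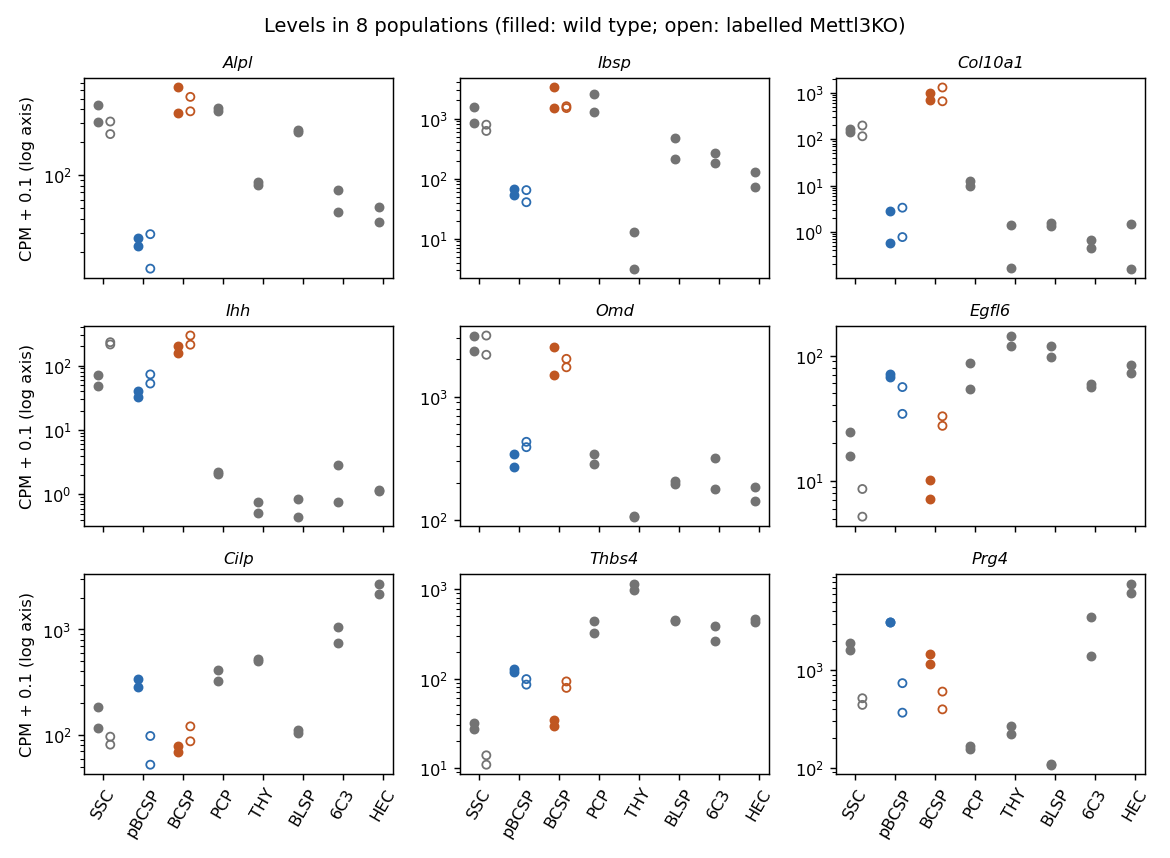
Levels (CPM + 0.1, log axis) of 9 genes in the 8 sorted populations (x axis), with 1 filled point a WT library and 1 open point a library labelled Mettl3KO, pBCSP in blue and BCSP in orange. In WT, Col10a1 reaches 1015 CPM in BCSP and stays at or below 12.8 CPM in PCP, THY, BLSP, 6C3 and HEC, while Prg4 is highest in HEC.

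The libraries labelled Mettl3KO were an independent set of pBCSP and BCSP. Mettl3 was 22.2 and 22.8 CPM in their pBCSP and 16.3 and 17.8 CPM in their BCSP libraries, against 11.9 and 16.1 CPM and 18.1 and 19.9 CPM in WT, so that the count of the whole gene does not show the deletion and cannot check the label. Here Ddx3y was high in the replicates numbered 1 and Xist in those numbered 2, the reverse of WT. In this set edgeR called none of 15926 genes at an adjusted p under 0.05, with 632 at an unadjusted p under 0.05, and DESeq2 called 83 higher in BCSP and 9 higher in pBCSP. By the rule of the study 480 genes (3.01%) were higher in BCSP and 152 (0.954%) in pBCSP. Of the 15 genes called in WT, 14 had the same direction, all but Cilp, against 52.9% of the 15118 genes tested in both. Col10a1 was 3.25 and 0.678 CPM in pBCSP and 662 and 1313 CPM in BCSP (log2 fold change 8.98 against 9.12 in WT), Ibsp had 4.90 against 5.32, and Alpl 4.41 against 4.35. The 3 genes higher in WT pBCSP had -0.57 (Egfl6), 0.48 (Cilp) and -0.09 (Thbs4), against -2.999, -2.06 and -1.94 in WT. Among genes that met the rule of the study in WT, 616 of 933 (66.0%) on the BCSP side and 540 of 967 (55.8%) on the pBCSP side kept their direction. The hypertrophic list had a median of 1.97 with all 15 genes positive, and the tendon, ligament and joint list had a median of -0.13.

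**Figure D5:**
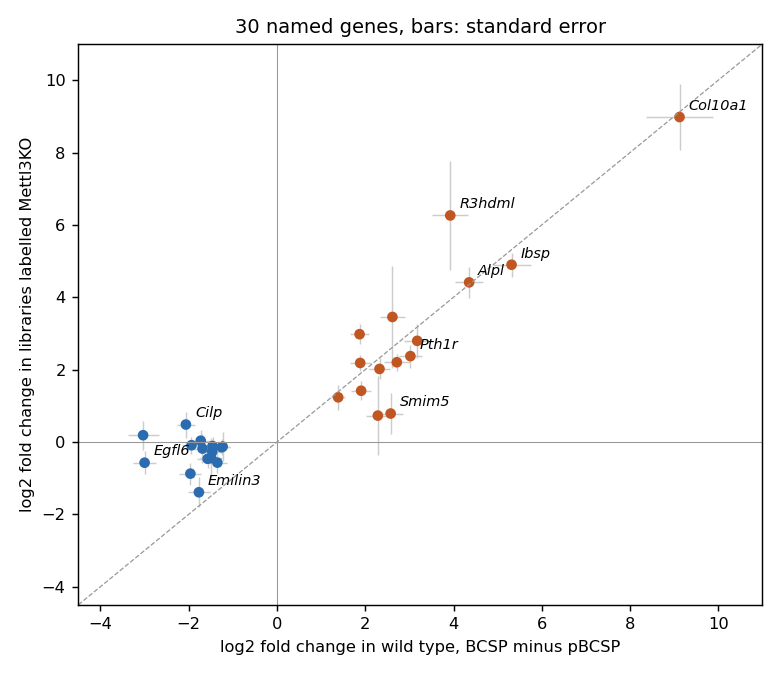
Log2 fold change (BCSP minus pBCSP) in WT (x axis) and in libraries labelled Mettl3KO (y axis) for the 30 named genes, with bars for the SE, orange for genes higher in WT BCSP, blue for genes higher in WT pBCSP, and a dashed line of equal values. Orange points lie above 0 on both axes, from 0.73 for Cbln2 to 8.98 for Col10a1 on the y axis, while blue points lie between -1.39 (Emilin3) and 0.48 (Cilp).

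The difference between the genotype labels was tested itself, and edgeR called none of 17805 genes at an adjusted p under 0.05, with 999 at an unadjusted p under 0.05, while DESeq2 called 15. Thbs4, Egfl6 and Cilp had unadjusted p of 0.000158, 0.000276 and 0.000253 and an adjusted p of 0.818 each, so that a smaller difference in these libraries was not shown. For Col10a1 the unadjusted p was 0.887.

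CD105 also divides the 6C3+ cells into 6C3 (CD105+) and HEC (CD105-), and it divides the Thy1+ cells into PCP and THY (CD105+) and BLSP (CD105-). These libraries are not part of the comparison of BCSP with pBCSP. Between 6C3 and HEC edgeR called none of 16414 genes at an adjusted p under 0.05, with 1402 at an unadjusted p under 0.05, and DESeq2 called 93 and 47. By the rule of the study 831 (5.06%) were higher in 6C3 and 569 (3.47%) in HEC. Between PCP with THY and BLSP, 798 of 19270 genes (4.14%) met the rule on the CD105+ side and 1000 (5.19%) on the other. Of the 15 genes called between BCSP and pBCSP, 12 had the same direction in 6C3 against HEC and 7 in PCP with THY against BLSP, beside 47.3% and 49.4% of all genes tested in both. The second contrast averages PCP and THY, which were unlike for some of these genes. Ibsp was 2569 and 1264 CPM in PCP, 12.7 and 3.08 CPM in THY and 216 and 481 CPM in BLSP. Alpl was 386 and 412 CPM, 87.0 and 81.6 CPM, and 249 and 258 CPM in the same order. Their averaged contrasts were -1.53 and -0.48, although PCP lay above BLSP. F13a1 (2.29), Cbln2 (2.54), Dmp1 (1.58) and Ibsp (1.17) were higher in 6C3 than in HEC at unadjusted p in edgeR of 1.42e-05, 0.00255, 0.000115 and 0.00736, whereas Col10a1 had -0.63, Cd200 -0.15 and Alpl 0.43. Some of these levels were near the floor. In the 6C3 and HEC libraries Col10a1 was at most 1.41 CPM, Ihh at most 2.76 CPM and Cbln2 at most 3.53 CPM. Among the genes meeting the rule of the study, 43.0% on the BCSP side and 46.2% on the pBCSP side kept their direction in 6C3 against HEC. The difference between the 2 compartments passed edgeR's adjusted test for none of 17950 genes, with 2206 at an unadjusted p under 0.05, and for 261 genes in DESeq2. Alpl and Cd200 came closest among the genes named, each with an adjusted p of 0.0585.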

How the data were processed

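Input RNA of WT pBCSP and BCSP (2 libraries each) was compared across genes. The deposited counts are whole numbers of reads per gene without normalization, which the authors obtained by trimming with fastp 0.20.1, alignment to GRCm38 with HISAT2 2.2.1 and counting with featureCounts 2.0.1. The annotation and the strand setting are not given in the sources used here, so reads of overlapping genes may be shared. The libraries were made by a Smart-seq2-based protocol without molecular identifiers. Tables of the authors' own comparison of Mettl3KO with WT SSCs, which hold fold changes, p-values and m6A changes, were not used. IP libraries were not used here.

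Of 46959 rows, 128 named 1-Mar or 2-Mar (at most 0.0596% of the counts of the 4 libraries) were left out, and 44681 of the remaining 46831 genes matched a single entry of GENCODE vM21, from which positions were taken. Counts were tested in R 4.3.3 with edgeR 4.0.16 (filterByExpr, TMM, quasi-likelihood F test) on the libraries of each comparison alone, with Benjamini-Hochberg adjustment over all genes tested. The SE was derived from each fold change and its F statistic. DESeq2 1.42.0, other scalings, no filter, a replicate block, shared spread over 16 libraries and leaving out each library were the alternatives. A comparison of 2 with 2 libraries cannot reach a permutation p under 0.05. The scripts were tested on simulated data.

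Genes named are the 15 of smallest p in each direction with a mean of at least 5 CPM in the higher population and no overlap, the sort markers, and up to 4 genes per list by p among those that passed the adjusted test or else the rule of the study, and others are said to be chosen after their values were seen. The members, gene lists and tests were chosen with earlier results of these data known. Genes given by name only to complete a list's count, markers of other cell types and osteocalcin copies were likewise chosen with their values known. Replicates shared only a number in the labels. Replicates were compared by chi-square over genes, which came to 58.8 (pBCSP) and 89.7 (BCSP) per degree of freedom, so that none was a duplicate. A further list, of skeletal genes, was not reported because its members could not be traced to the study's text.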

Additional observations from a re-analysis of the deposited data

Results flagged for a closer look

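Alcam, an adhesion molecule, was higher in both pBCSP libraries than in both BCSP libraries (log2 fold change of -1.73) and, in the opposite direction, higher in both 6C3 libraries than in both HEC libraries (log2 fold change of 0.12, SE 0.27, unadjusted p in edgeR 0.663), so that this second difference did not pass a test of its own. Between PCP with THY and BLSP it had the direction of BCSP against pBCSP (log2 fold change of -2.20, adjusted p in edgeR 0.00845). The test of the difference between the first 2 contrasts in edgeR gave an unadjusted p of 0.000569 and an adjusted p of 0.18. The contrast of PCP with THY against BLSP was not searched for such reversals. In it Cilp and Prg4, both higher in pBCSP than in BCSP, were higher on the CD105+ side. Their log2 fold changes were 1.99 and 0.86 (adjusted p in edgeR 0.000286 and 0.0214). F13a1 kept the direction of BCSP against pBCSP there (1.82, adjusted p in edgeR 0.00253).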

How the results depend on the processing

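All 15 genes called between BCSP and pBCSP kept their direction in every alternative run, and they stayed called except by library size alone (13, without Cbln2 and F13a1), without BCSP replicate 1 (7) and without BCSP replicate 2 (9). The counts of called genes depended on the fit. For genes higher in BCSP and higher in pBCSP (12 and 3), DESeq2 gave 227 and 196, no filter on low counts 293 and 279, and 16 libraries in the fit 124 and 212 (1806 genes higher in pBCSP by the rule of the study). With the replicate block, which here also separates Xist from Y-linked libraries, the counts were 401 and 382. The block also called 60 of the named genes that the unblocked fit did not, among them Chad, Mef2c, Frzb, Dkk3, Prg4 and Gas1, against 48 for DESeq2 and 26 for the fit of 16 libraries. In the labels the replicates share only a number, while in both populations replicate 1 carried Xist and replicate 2 carried Y-linked transcripts. Across genes the differences between replicates 1 and 2 correlated at 0.176 between the populations. With 1 library left out the counts ranged from 7 to 58 in BCSP and from 0 to 22 in pBCSP, and by the rule of the study from 556 (without pBCSP replicate 2) to 1401 (without BCSP replicate 2) and from 509 to 1561 in the same order.
In libraries labelled Mettl3KO (0 and 0), DESeq2 gave 83 and 9, no filter 82 and 8, and the replicate block 2 in BCSP, and leaving out 1 library gave 2 to 3 in BCSP and 0 to 0 in pBCSP. For the difference by genotype label (0), DESeq2 gave 15, no filter 13, and leaving out 1 library 0 to 6. For 6C3 and HEC (0 and 0), DESeq2 gave 93 and 47, no filter 352 and 165, the replicate block 26 and 6, and leaving out 1 library 0 to 1840 and 0 to 1959. For PCP with THY and for BLSP (98 and 186), DESeq2 gave 352 and 330, no filter 372 and 407, the replicate block 63 on the CD105+ side, library size alone 62 on it, and leaving out 1 library 11 to 631 and 71 to 518. For the difference between compartments (0), DESeq2 gave 261, no filter 563, and leaving out 1 library 0 to 187. The cause of these shifts was not tested. With 1 library left in a group, its spread is assumed to equal that of the other group.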
